A study of Homo sapiens with 6 samples.

Results

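Metallothioneins, the zinc-sensing transcription factor *MTF1* and the zinc exporter *SLC30A1* were described in HCCLM3, a human hepatocellular carcinoma cell line, with and without overexpression of *PON1*. The 9 genes *MT1A*, *MT1E*, *MT1F*, *MT1G*, *MT1M*, *MT1X*, *MT2A*, *MTF1* and *SLC30A1* were taken by gene symbol from a table of 20381 genes. RNA-seq of polyA RNA was available for 3 libraries of cells carrying a *PON1* lentivirus (PON1-OE) and 3 libraries of cells carrying the control lentivirus (NC), which the series text calls an empty vector. Both groups share the HCCLM3 background and the viral transduction. The sources used here do not state whether a group was 1 clone or a pool, which promoter drove the transgene, or whether the 3 libraries came from separate cultures, so errors and p-values describe the spread between these libraries. The comparison between the groups addressed which genes changed in level with *PON1* overexpression.

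Metallothioneins are small, cysteine-rich proteins that bind zinc and copper, and also cadmium, and they buffer free metal in the cytosol. When free zinc rises, MTF1 binds it, moves to metal response elements (MREs) in the promoters of its target genes and raises their transcription. Metallothionein genes and *SLC30A1*, which encodes the zinc exporter ZnT1 of the plasma membrane, are well known targets of MTF1. In liver, metallothioneins also respond to glucocorticoids, and loss of metallothionein expression is common in hepatocellular carcinoma.

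The promoter sequences are shown because MREs are the elements through which MTF1 acts on these genes. RefSeq promoters on GRCh38.p14 were given for 4 of the 9 genes (*MT2A*, *MT1X*, *MTF1* and *SLC30A1*) and for 3 other metallothioneins (*MT1B*, *MT1H* and *MT4*), and the 250 bases before each RefSeq start were searched. The MRE core was searched as TGCACNC and TGCGCNC on both strands, where N is any base. It was found 7 times for *MT2A*, 8 times for *MT1H*, 4 times for *MT1X*, 3 times each for *MT4* and *MT1B*, and 1 time for *SLC30A1*, and it was not among the letters of the *MTF1* window. Of 35116 RefSeq windows of this length, 24.8% held at least 1 core, 0.370% held at least 4 and 0.0313%, or 11 windows, held at least 7, with a median of 0. The *MT2A* window (chr16:56608334-56608583, plus strand) lies in the 5′ UTR of a longer transcript in GENCODE v29, so only its 7 core sites are printed, from the farthest to the nearest to the start. *MT1X* is printed up to the start of its GENCODE v29 gene (chr16:56682220-56682423, plus strand), and *MT1H* (chr16:56669564-56669813, plus strand) and *SLC30A1* (chr1:211579162-211579411, minus strand) are printed in full. All run 5′ to 3′ on the strand of the gene, and capitals mark the MRE cores.

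MT2A site 1: cgcTGCACCCagc
MT2A site 2: cccGTGTGCAgag
MT2A site 3: gggTGCGCCCggc
MT2A site 4: cagTGCGCGCggc
MT2A site 5: ggcGTGTGCAggc
MT2A site 6: tttTGCACTCgtc
MT2A site 7: cgcTGCACTCc
MT1X: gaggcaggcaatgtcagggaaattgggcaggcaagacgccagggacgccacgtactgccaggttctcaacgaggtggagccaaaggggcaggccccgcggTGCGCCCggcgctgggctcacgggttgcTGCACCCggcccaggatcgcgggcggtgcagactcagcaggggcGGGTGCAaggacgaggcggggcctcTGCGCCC
MT1H: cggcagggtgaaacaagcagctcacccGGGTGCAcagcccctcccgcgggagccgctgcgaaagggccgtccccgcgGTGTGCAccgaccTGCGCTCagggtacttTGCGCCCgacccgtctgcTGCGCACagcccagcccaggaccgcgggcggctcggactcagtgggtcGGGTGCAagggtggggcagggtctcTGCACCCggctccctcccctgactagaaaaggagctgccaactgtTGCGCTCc
SLC30A1: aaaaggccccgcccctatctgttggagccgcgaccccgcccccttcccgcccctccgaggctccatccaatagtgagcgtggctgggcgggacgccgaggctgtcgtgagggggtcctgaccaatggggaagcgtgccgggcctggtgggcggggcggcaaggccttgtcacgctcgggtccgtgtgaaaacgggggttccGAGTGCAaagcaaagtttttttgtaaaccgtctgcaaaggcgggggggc

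In *MT2A* the cores lay throughout the window, and the nearest began 8 bases before the start. The single core of *SLC30A1* began 49 bases before its RefSeq start. Its GENCODE v29 gene starts farther downstream, at chr1:211578742, and the bases between the 2 starts were not searched. The TATA box letters TATAAA, searched on the strand of the gene, began 29 bases before the start in *MT2A* and *MT4* and 30 bases before it in *MT1X* and *MT1B*, and 6.80% of all windows held them. They were not in the windows of *MT1H*, *SLC30A1* or *MTF1*. A match describes letters only, and binding was not measured.

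The libraries held 15706672 to 17948383 estimated counts, and levels are given as CPM, a library's counts scaled to a common total, after TMM scaling. *PON1* itself, the check of the labels, had 0, 2 and 3 counts in the NC libraries and 155, 181 and 167 in the PON1-OE libraries, at least 60.02-fold higher than a floor of 3 counts per library. Hepatocyte-lineage genes were mixed, with the keratins *KRT8* and *KRT18* at 2410 and 1528 CPM and *HNF4A* at 78.6 CPM in NC, but *ALB*, the gene of serum albumin, at 0.578 CPM and *APOB* at 5.77 CPM (4.49 CPM in PON1-OE, edgeR adjusted p = 0.443). Of 12 markers of other cell types, 7 were at or under the floor in every library, 4 of them at 0, while the macrophage marker *CD68* and the endothelial marker *PECAM1* were detected. *VWF*, *COL1A1* and *PDGFRB* passed the floor in at least 1 library but not the filter on low counts. Without that filter their edgeR log2FC was −0.011 (SE 0.61), 1.69 (SE 1.53) and −0.74 (SE 1.11). The edgeR adjusted p was 0.995, 0.793 and 0.853. *COL1A1* and *PDGFRB* did not exceed 4 counts in any library, so their values lay close to the floor and show no difference between groups. *CD68* was at 215 CPM in NC and 235 in PON1-OE (log2FC 0.13, edgeR unadjusted p = 0.00943, adjusted p = 0.252). *PECAM1* was at 13.1 and 15.1 CPM (log2FC 0.21, adjusted p = 0.452), with groups that did not overlap, as for 16.1% of all tested genes. *CD68* and *PECAM1* both had the higher mean in PON1-OE, as *MT2A* did, and their part in the results was not tested. Within groups, pairs of libraries that included NC replicate 2 or PON1-OE replicate 2 differed most over all genes (chi-square per degree of freedom 3.10 to 4.11, against 2.11 and 2.40 for the other pairs). Results are therefore also given without these 2 libraries.

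*MT2A* was almost the whole of the metallothionein signal. Of the 12 metallothionein rows of the table, 9 had 0 counts in all 6 libraries, and *MT2A* made up 95.7% to 100% of the metallothionein counts of a library. Of the 9 genes described here, *MT1E*, *MT1F*, *MT1G* and *MT1M* were at 0 throughout and *MT1A* had 1 count, in NC replicate 1. The 5 other metallothioneins in the table, *MT1B*, *MT1H*, *MT1HL1*, the brain-enriched *MT3* and the squamous-epithelium gene *MT4*, were also at 0. A count of 0 allows up to 3 counts in a library, or 0.166 to 0.192 CPM, which covers counting error only.

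Set per kilobase of exon, *MT2A* was at 8.47 CPM per kb over the 6 libraries. On this scale, with all merged exons as the length, it was at least 33.2-fold higher than *MT1G*, 46.5-fold higher than *MT1E*, 41.6-fold higher than *MT1M* and 83.5-fold higher than *MT1F*, each set at the floor of 3 counts per library. With the length of the principal transcript, an alternative chosen after the values were seen, these bounds were 29.7-fold, 51.4-fold, 60.6-fold and 50.4-fold. *MT1X* was at 0.162 CPM per kb with merged exons and at 0.639 with its principal transcript. *SLC30A1* was at 11.9 and *MTF1* at 3.09 CPM per kb, above 68.9% and 36.3% of the tested genes with a known length, and *MT2A* was above 60.8%. The order of *SLC30A1* and *MT2A* depended on the length used, since with the length of the principal transcript (0.786 kb in place of 1.299 kb) *MT2A* was at 13.99 CPM per kb, above *SLC30A1*.

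On GRCh38 (GENCODE v29), 11 of the 12 metallothionein rows lie in 119 kb of chromosome 16 (56565049 to 56684196), with 5 *MT1* pseudogenes among them. *MT2A* (ENSG00000125148, 56608199 to 56609497, plus strand) is followed by *MT1E*, *MT1M*, *MT1A*, *MT1B*, *MT1F*, *MT1G*, *MT1H* and *MT1X* (ENSG00000187193, 56682424 to 56684196, plus strand), and *MT1G* alone lies on the minus strand. Every row between *MT2A* and *MT1X* was at 0 or, for *MT1A*, at a single count. The genes that border the cluster were transcribed, with *BBS2* at 15.2 CPM and *NUP93* at 81.6 CPM. *MTF1* (ENSG00000188786, 37809567 to 37859620) and *SLC30A1* (ENSG00000170385, 211571568 to 211578742) lie apart from it on the minus strand of chromosome 1.

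**Figure D1:**
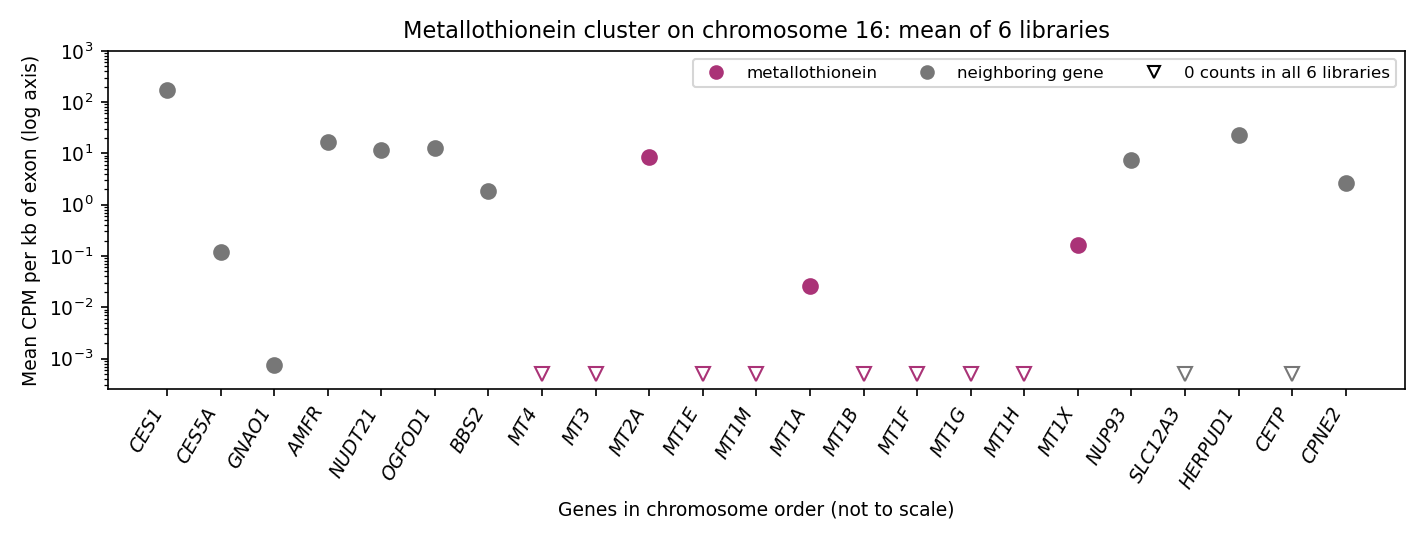
Mean level over 6 libraries (CPM per kb of exon, log axis) of the metallothioneins and of neighboring genes in their order along chromosome 16, which is not drawn to scale. Open triangles stand for genes with 0 counts in all libraries, and *MT2A*, at 8.47 CPM per kb of merged exons, stands above *MT1X* at 0.162 (13.99 and 0.639 with principal transcript lengths, not drawn) and a row of triangles.

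Metallothioneins resemble one another, and reads can be shared between them. Of the 50-base stretches of its transcripts, 3.02% in *MT2A* also occurred in a transcript of another gene, against 18.3% in *MT1X*, 16.5% in *MT1G*, 9.87% in *MT1M*, 7.10% in *MT1E*, 5.76% in *MT1A* and 1.22% in *MT1F*. The value was 0.640% for *MTF1* and 0 for *SLC30A1*. Any other gene counted, metallothionein or not. Exons of *MT1X* overlap those of *AC026461.1* on the same strand, so its share may include stretches of that gene. How the authors assigned such reads is not given in the sources used here. The few *MT1X* and *MT1A* counts are therefore uncertain, as are the counts of 0 in *MT1E*, *MT1F*, *MT1G* and *MT1M*.

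*MT2A*, the main metallothionein of most human cells, averaged somewhat higher in PON1-OE, but the difference did not pass the test over all genes. The NC libraries held 144, 213 and 154 counts and the PON1-OE libraries 192, 191 and 201. In CPM the levels were 8.72, 11.8 and 9.03 against 11.7, 11.9 and 12.8. All PON1-OE libraries lay above NC replicates 1 and 3, while NC replicate 2 lay just above PON1-OE replicate 1, so the groups overlapped. The means were 9.84 ± 1.68 CPM for NC and 12.2 ± 0.600 CPM for PON1-OE (SD, n = 3 each). The log2 fold change of PON1-OE over NC (log2FC) was 0.30 (SE 0.12, 95% confidence interval 0.044 to 0.56), a 1.23-fold ratio. With the edgeR quasi-likelihood test it had an unadjusted p of 0.0237 and an adjusted p of 0.362 (Benjamini-Hochberg, over 11958 tested genes).

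An exact two-sided permutation test of the CPM values of *MT2A* gave p = 0.2, where 3 libraries against 3 cannot go below 0.1. Over all tested genes, 0.677% had an adjusted p under 0.05 and 11.1% an unadjusted p under 0.05, 5.91% with the higher level in PON1-OE. With a fold threshold on top of the adjusted p the share was 0.0502%. Of the 9 genes, 3 passed the filter on low counts (*MT2A*, *MTF1* and *SLC30A1*), 0 of these had an adjusted p under 0.05 by edgeR, limma-voom or DESeq2 (which gave *MT2A* and *MTF1* no adjusted p), and 1 (*MT2A*) had an unadjusted p under 0.05 by edgeR and 0 by DESeq2. In a bulk library, a difference in RNA per cell and a difference in the share of cells that express the gene cannot be told apart.

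The difference in *MT2A* moved with single libraries. Without NC replicate 2 its log2FC was 0.45 (edgeR, unadjusted p = 0.00173, adjusted p = 0.121), and without both NC replicate 2 and PON1-OE replicate 2, an alternative chosen after the values were seen, it was 0.47 (adjusted p = 0.0602), where 2.76% of 11988 genes had an adjusted p under 0.05. Without NC replicate 1 it was 0.22 (unadjusted p = 0.114), without NC replicate 3 it was 0.24 (0.0967), and without PON1-OE replicate 3 it was 0.26 (0.0788). The direction was the same in all 14 alternatives, and the adjusted p stayed between 0.0602 and 0.722 where one was given.

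**Figure D2:**
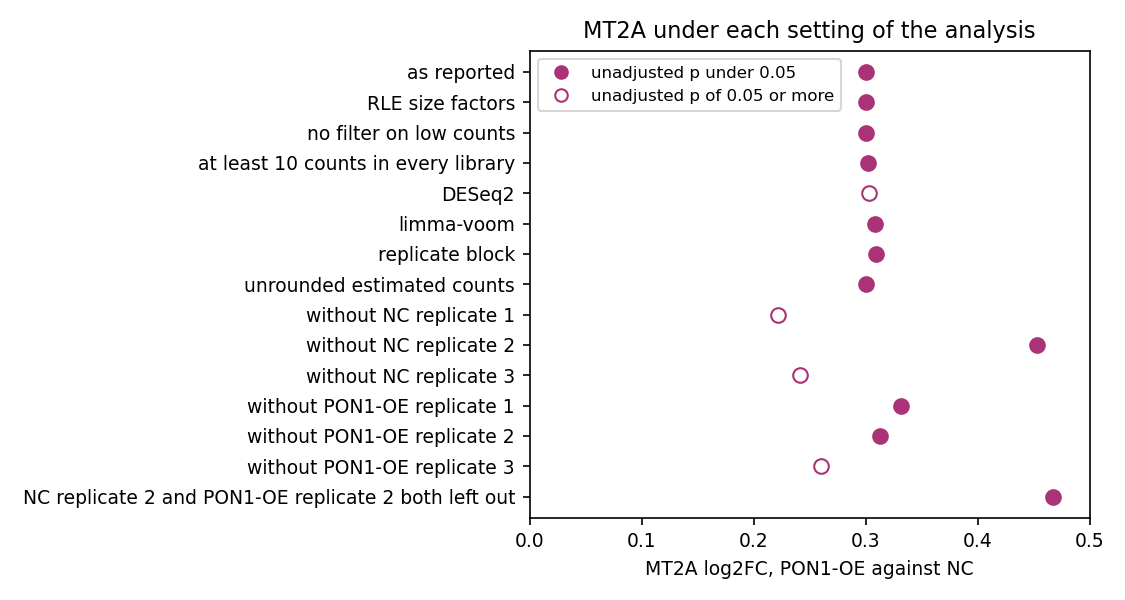
log2FC of *MT2A*, PON1-OE against NC, under the reported setting and each alternative (rows), with filled points for an unadjusted p under 0.05. The points run from 0.22 without NC replicate 1 to 0.47 with NC replicate 2 and PON1-OE replicate 2 both left out.

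*MT1X*, the other metallothionein with counts in more than 1 library, was close to the floor. Its counts were 5, 6 and 7 for NC and 5, 6 and 0 for PON1-OE. PON1-OE replicate 3 alone had none, and the other 5 libraries did not separate by group. The mean level was 0.348 ± 0.0557 CPM for NC and 0.227 ± 0.199 CPM for PON1-OE (SD, n = 3 each). *MT1X* did not pass the filter, and edgeR without the filter gave a log2FC of −0.61 (SE 0.78, 95% confidence interval −2.17 to 0.95, adjusted p = 0.819), where 1.14% of 15542 genes had an adjusted p under 0.05. Without PON1-OE replicate 3 it was −0.037. Ratios from 0.223 to 1.93 were within the interval, so changes within that range, in either direction, were not excluded.

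Summed over all metallothionein rows, the levels were 9.08, 12.1 and 9.44 CPM for NC against 11.99, 12.3 and 12.8 CPM for PON1-OE. They followed *MT2A*, which supplied nearly all counts, and NC replicate 2 again lay within the PON1-OE range. The summed log2FC was 0.27 (SE 0.12, 95% confidence interval 0.025 to 0.52, edgeR adjusted p = 0.397).

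*MTF1*, the zinc sensor that drives metallothionein transcription, had a difference between groups within the spread of the libraries. It had 389, 422 and 442 counts in the NC libraries against 420, 383 and 417 in the PON1-OE libraries, at 23.6, 23.3 and 25.9 CPM against 25.6, 24.0 and 26.6 CPM. The groups overlapped, with the highest library in PON1-OE and the lowest in NC. The means were 24.3 ± 1.43 and 25.4 ± 1.35 CPM (SD, n = 3 each), and the log2FC was 0.065 (SE 0.079, 95% confidence interval −0.100 to 0.23, edgeR adjusted p = 0.829). The interval covers ratios from 0.933 to 1.17.

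*SLC30A1*, which exports zinc from the cell and is under MTF1 control like the metallothioneins, showed no difference past the spread of the libraries. It had 1041, 1275 and 1096 counts in the NC libraries against 1079, 908 and 1080 in the PON1-OE libraries. In CPM these were 63.0, 70.5 and 64.3 against 65.7, 56.8 and 68.9. The highest library, NC replicate 2, and the lowest, PON1-OE replicate 2, were the 2 that stood apart over all genes, and the other 4 lay between 63.0 and 68.9 CPM. The log2FC was −0.048 (SE 0.067, 95% confidence interval −0.19 to 0.091, edgeR adjusted p = 0.853). Its sign turned without NC replicate 2 (0.0033), without PON1-OE replicate 2 (0.030) and without both (0.082, adjusted p = 0.540).

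**Figure D3:**
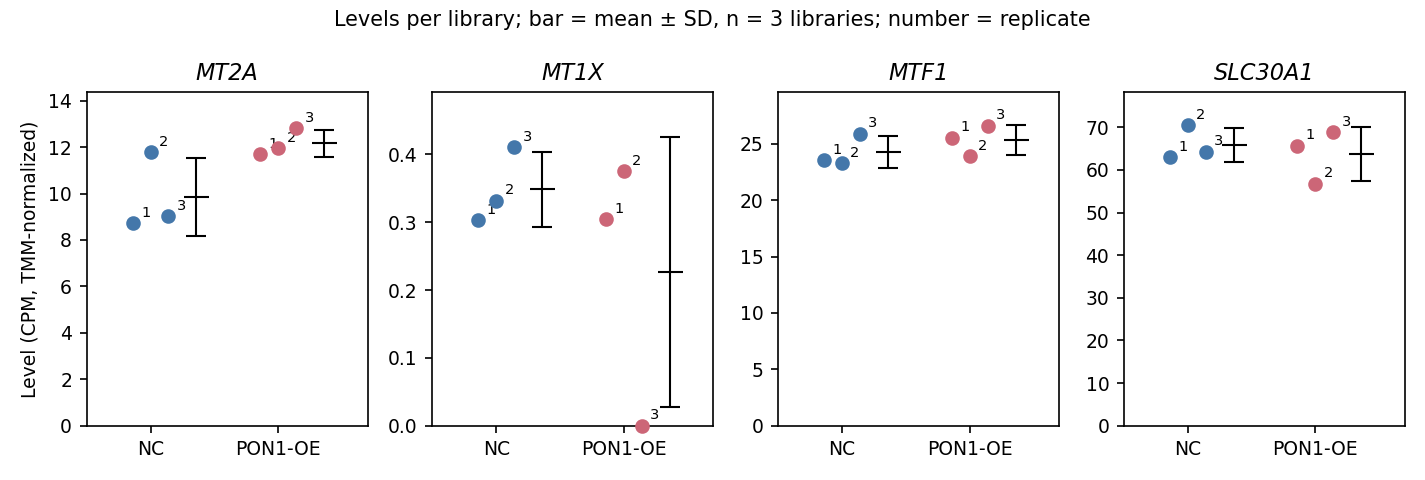
Level of *MT2A*, *MT1X*, *MTF1* and *SLC30A1* (CPM, TMM-normalized, each panel with its own axis from 0) in every library, with replicate numbers beside the points and the mean ± SD of 3 libraries as bars. NC replicate 2 is the highest NC library for *MT2A* (11.8 CPM) and *SLC30A1* (70.5 CPM), and PON1-OE replicate 3 has no *MT1X* counts.

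Within groups, the spread of *SLC30A1* was wide for its level. The SD of log2 CPM within groups was 0.12, where the median of 2345 genes of like level (mean CPM within a factor of 1.5) was 0.066, and 93.5% of them had a smaller SD. Counting error alone would give 0.044. For *MT2A* the SD was 0.17 against a median of 0.13 over 1763 genes of like level, and it came mainly from NC (0.23) rather than PON1-OE (0.069). *MTF1* had an SD of 0.080 against a median of 0.093 over 2498 genes.

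*MT2A* and *SLC30A1*, both MTF1 targets, were also compared within each library. The ratio of *MT2A* to *SLC30A1* counts was 0.138, 0.167 and 0.141 for NC against 0.178, 0.210 and 0.186 for PON1-OE. Every PON1-OE library lay above every NC library for this ratio, which was chosen after the values were seen. The groups overlapped for *MT2A* alone, and NC replicate 2 and PON1-OE replicate 2 held the highest and lowest *SLC30A1* levels. The means were 0.149 ± 0.0160 and 0.191 ± 0.0169 (SD, n = 3 each), a log2 difference of 0.37. The exact two-sided permutation test gave p = 0.1, the smallest it can give, and the log2 difference was 0.30 to 0.45 with each library left out. Because the ratio was picked from the same values, this p is descriptive only. Among single tested genes, 16.1% had groups that did not overlap, which is no reference for a picked ratio of 2 genes.

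The other zinc transporters held 0 genes past the adjusted threshold in edgeR. Of 10 exporters other than *SLC30A1* (the SLC30 family and *TMEM163*), 5 passed the filter and 3 were at 0 in all libraries. None of the 5 had an unadjusted p under 0.05, beside 11.1% of all tested genes. Their median log2FC was −0.012, beside −0.0025 over all tested genes. The exporters with the highest levels were *SLC30A9*, at 29.1 ± 2.17 CPM in NC and 31.6 ± 4.76 in PON1-OE (log2FC 0.12, adjusted p = 0.686), and *SLC30A5*, which loads zinc into the secretory pathway, at 27.4 ± 2.09 and 27.2 ± 2.31 CPM (log2FC −0.012, adjusted p = 0.975).

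Of 14 importers of the SLC39 family, which bring zinc into the cytosol, 11 passed the filter and 1 had an unadjusted p under 0.05, lower in PON1-OE. Over all tested genes, 5.17% were lower at this threshold. In 8 of the 11 importers the log2FC was below 0, with a median of −0.067, beside −0.0025 over all tested genes. *SLC39A1* (ZIP1) was at 696 ± 19.7 CPM for NC and 652 ± 11.9 CPM for PON1-OE (log2FC −0.095, SE 0.034, edgeR unadjusted p = 0.0104, adjusted p = 0.262). Groups did not overlap for 3 of the 11 importers (*SLC39A1*, *SLC39A8* and *SLC39A11*), beside 16.1% of all tested genes. *SLC39A14* (ZIP14), which takes up zinc, iron and manganese in hepatocytes, was at 220 ± 7.15 and 210 ± 5.19 CPM (log2FC −0.067, adjusted p = 0.573).

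**Figure D4:**
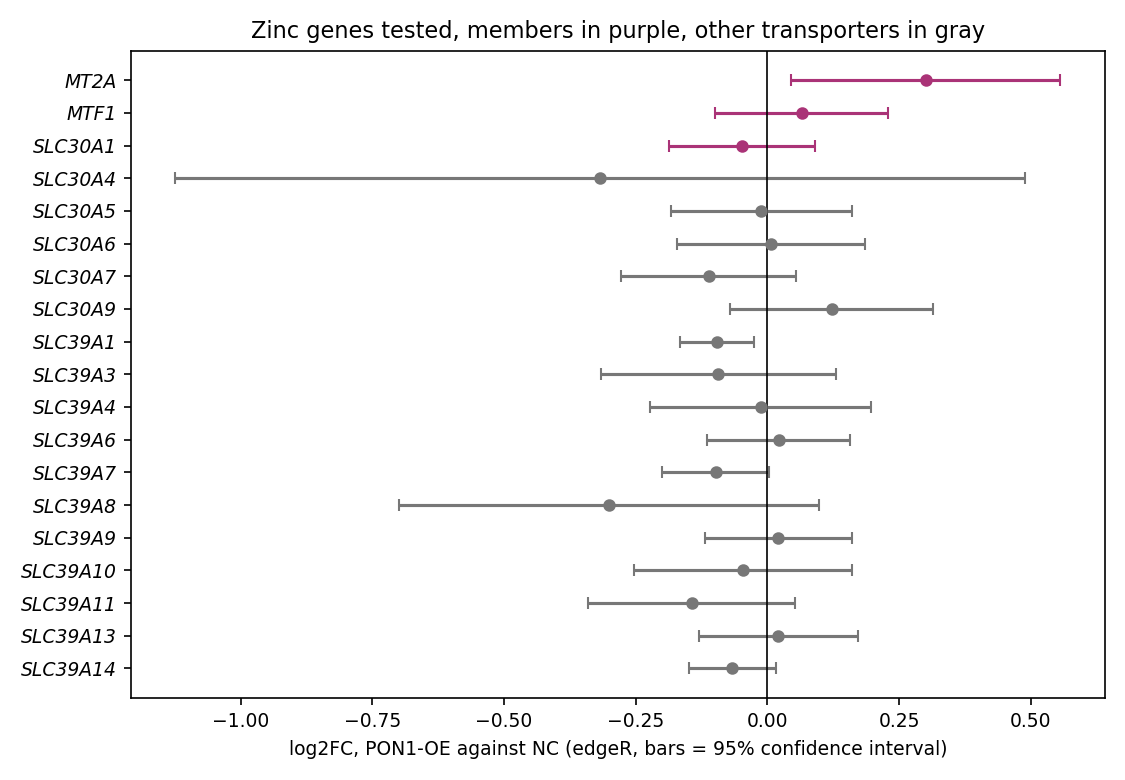
log2FC of PON1-OE against NC with 95% confidence intervals (edgeR) for the zinc genes that passed the filter, with *MT2A*, *MTF1* and *SLC30A1* in purple and other transporters in gray. Among these genes the intervals of *MT2A* (0.044 to 0.56, edgeR adjusted p = 0.362) and *SLC39A1* (adjusted p = 0.262) lie off 0, on opposite sides. The intervals are not adjusted for the number of genes, and 11.1% of all tested genes had an unadjusted p under 0.05.

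Metallothioneins also bind copper. All 14 copper handling genes passed the filter, 0 had an adjusted p and 1 an unadjusted p under 0.05 (edgeR), and the median log2FC was 0.0057. Over all tested genes, 11.1% had an unadjusted p under 0.05 and the median log2FC was −0.0025. The 1 gene was *ATP7A*, a copper exporter, at 20.9 ± 1.63 CPM for NC and 18.04 ± 0.853 CPM for PON1-OE (log2FC −0.21, adjusted p = 0.374). The copper importer *SLC31A1* (log2FC 0.075, adjusted p = 0.516) and the copper-zinc superoxide dismutase *SOD1* (log2FC 0.035, adjusted p = 0.838) had the highest levels of the list in CPM.

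Of 13 genes that respond to metal and oxidative stress, heat shock genes included, 4 had an unadjusted p under 0.05, all lower in PON1-OE, where 5.17% of tested genes were lower at this threshold. Of these, 2 passed the adjusted threshold, beside 0.677% of all tested genes. *HSPA1A*, an inducible HSP70 chaperone, fell from 504 ± 11.3 to 432 ± 19.7 CPM (log2FC −0.22, SE 0.038, edgeR adjusted p = 0.00682), and *HSPA1B*, its near-identical copy, fell from 286 ± 2.03 to 244 ± 17.1 CPM (log2FC −0.23, SE 0.044, adjusted p = 0.0187). Reads can be split between these copies, so their separate values are uncertain. *HSPA1A* had an adjusted p of 0.0523 without NC replicate 3, and *HSPA1B* had 0.0745 without NC replicate 1, 0.132 without NC replicate 3 and 0.0968 without PON1-OE replicate 1. *DNAJB1* (log2FC −0.12, adjusted p = 0.151) and *HSPB1* (log2FC −0.13, adjusted p = 0.184), also heat shock genes, did not pass. The median log2FC of the 13 genes was −0.0083.

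Of 10 glucocorticoid targets, 9 passed the filter, and 1 was higher and 1 lower at an unadjusted p under 0.05 (edgeR). Over all tested genes, 5.91% were higher and 5.17% lower at this threshold. *SGK1*, a kinase gene, was at 2.44 ± 0.197 CPM for NC and 3.33 ± 0.371 CPM for PON1-OE (log2FC 0.45, adjusted p = 0.450), and *ANGPTL4*, a lipoprotein lipase inhibitor, at 15.1 ± 0.742 and 12.6 ± 2.68 CPM (log2FC −0.26, adjusted p = 0.433).

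Of 12 genes that neighbor the cluster on chromosome 16, 8 passed the filter and 7 of them had a log2FC above 0, with a median of 0.067. The 1 with an unadjusted p under 0.05 was *NUDT21*, a factor of mRNA 3′ end processing, at 72.1 ± 1.61 CPM for NC and 66.1 ± 3.34 CPM for PON1-OE (log2FC −0.13, edgeR adjusted p = 0.391). Over all tested genes, 11.1% had an unadjusted p under 0.05, 5.17% with the lower level in PON1-OE, and the median log2FC was −0.0025. The neighbors with the highest levels in CPM, the carboxylesterase gene *CES1* and the endoplasmic reticulum stress gene *HERPUD1*, had a log2FC of 0.068 and 0.084 (adjusted p = 0.526 and 0.524). *MT2A*, with a log2FC of 0.30 (SE 0.12), had a higher estimate than the highest of these neighbors, *BBS2*, at 0.12 (SE 0.11). The confidence interval of *BBS2* (−0.11 to 0.35) included the estimate of *MT2A*, and a difference between these genes was not tested.

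The genes whose levels ran most like those of *MT2A* over the 6 libraries were sought by the root mean square distance of centered log2 CPM among 2048 genes. They were *KDR* (distance 0.060), the gene of a VEGF receptor, *SRGN* (0.068), the gene of a proteoglycan core protein, and *FRMD6* (0.073). *MTF1* and *SLC30A1* were each at a distance of 0.21, near the SD of the *MT2A* deviations themselves (0.23). A gene that hardly varied would lie at about this distance, so the value is no measure of how unlike *MT2A* they were. *SRGN* was at 20.04, 23.2 and 18.6 CPM for NC and 25.3, 25.4 and 28.3 CPM for PON1-OE, with NC replicate 2 again the highest NC library. This is a description over libraries that share their groups, with no test.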

How the data were processed

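The authors deposited 1 table of estimated counts per gene and library, not normalized, with 10.5% of values not whole. The submitters' processing notes name Bowtie2 2.2.8, HISAT2, StringTie 1.3.1 and DESeq2 without roles, and the genome build, annotation and use of strand are not given in the sources used here. The sources differ on the serum content of the medium and on whether lysis followed transfection or stable selection.

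Estimated counts were rounded, which the design, set for whole counts, had not foreseen. In R 4.3.3, genes were filtered with filterByExpr (11958 kept), scaled by TMM and tested with edgeR 4.0.16 (quasi-likelihood, PON1-OE against NC, no covariates), adjusted by Benjamini-Hochberg at 0.05, with an additional fold threshold of |log2FC| over 0.585. Scripts were tested on simulated data. DESeq2 1.42.0, limma-voom (limma 3.58.1), no filter, a minimum of 10 counts in each library, RLE factors, a replicate block, unrounded counts and leaving out each library were alternatives. Within-group SDs used log2(CPM + 0.25). Exon lengths came from GENCODE v29 (20126 of 20381 identifiers matched). The depth of 15706672 to 17948383 counts set the floor of 3 counts at 0.166 to 0.192 CPM. Replicate numbers were not used to pair the libraries in the main test.

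The genes and lists were chosen with earlier results of these data known. Named genes were the 9 genes and other metallothioneins, *PON1*, from each list up to 4 genes with an unadjusted p under 0.05 (where fewer than 2 passed, the 2 with the highest CPM), and the 3 genes most like *MT2A* among those with a mean of at least 10 CPM and an SD of at least 0.5 times its own. *HNF4A*, *ALB*, *BBS2*, *NUP93*, *SLC39A8*, *SLC39A11*, *VWF*, *COL1A1* and *PDGFRB* were named after their values were seen.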

Additional observations from a re-analysis of the deposited data

How the results depend on the processing

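The count of the 9 genes with an adjusted p under 0.05 was 0 in all 15 alternatives run. The count with an unadjusted p under 0.05 was 1 (*MT2A*), but 0 under DESeq2 and with the fold threshold as well, and 0 to 1 with each library left out. *SLC30A1* reversed from −0.048 to 0.0033 without NC replicate 2, to 0.030 without PON1-OE replicate 2 and to 0.082 with both left out, and these 2 libraries held its extreme values. With each library left out it ran from −0.11 to 0.030. The other log2FC kept their direction, at 0.22 to 0.47 for *MT2A*, 0.030 to 0.11 for *MTF1*, −1.17 to −0.037 for *MT1X* and 0.20 to 0.42 for the summed metallothioneins. Over all genes, calls at an adjusted p under 0.05 numbered 81, and 177 without the filter, 123 with DESeq2, 331 with NC replicate 2 and PON1-OE replicate 2 both left out, and 11 to 103 with each library left out. Same-numbered libraries did not deviate together over all tested genes (correlations 0.024, −0.038 and 0.0027). With 3 libraries per group and counting error in each gene, this does not exclude a shared batch. With the replicate number as a block the calls numbered 40, *MT2A* had a log2FC of 0.31 (adjusted p = 0.431) and the summed metallothioneins 0.28. At this depth, counting error bounds metallothioneins at 0 counts only to below 0.166 to 0.192 CPM. This bound does not cover reads that were dropped or given to another gene.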
